A study of Zea mays with 10 samples.

Results

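Among the genes of the maize root tip, 157 of 48174 were both abundant and at least about 2-fold higher in freshly labelled RNA than in the total RNA of the same kind of nuclei. They were chosen by their measured values. A gene was taken when its CPM, the count scaled to a library total of 1e6, averaged at least 20 over all 10 libraries, when every labelled library lay above every total nuclear library, and when R was at least 1. R is the log2 ratio of the group means with 0.5 CPM added to each. Of 164 genes that met these values, 7 identifiers were left out by the rule. Because the comparison of the groups chose the members, the size and direction of their difference between the groups are given as description, without a test, and support nothing.

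The tissue was the end of the primary and seminal roots, 1 mm long, of 3-day-old seedlings of the inbred line B73, the region that holds the meristem. Every seedling had 1 h of conditioning in water and 1 h in 175 uM 5-ethynyl uridine (EU), so the label was present in both groups. The EU nascent group of 5 libraries holds nuclear RNA pulled down through the label with biotin and streptavidin, and the nuclear group of 5 holds nuclear RNA that had no pulldown. The labels number the replicates of each group 1 to 5 and call them biological, without saying which material was separate, so a p-value here measures the spread between these libraries. A pulldown from unlabelled seedlings was not analysed here, so RNA that binds without the label has no measured level.

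RNA polymerase II makes a precursor in the nucleus that is capped, spliced and given a poly(A) tail before most of it leaves for the cytoplasm. RNA that carries a short pulse of label is young, while total nuclear RNA also holds older molecules, among them small RNAs that stay in the nucleus for good. The ratio of labelled to total RNA therefore depends on how long an RNA stays in the nucleus. It depends on synthesis where that changed near the time of the pulse, and these cannot be told apart in the present design. In bulk tissue, fewer cells of a type and less RNA per cell cannot be told apart either.

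Assigned counts ran from 2391209 to 5770915 in the EU nascent libraries and from 1323450 to 20397606 in the nuclear ones. All 12 genes of the replication and cell cycle marker list had counts, with a summed level of 932 to 987 CPM in EU nascent and 941 to 1203 CPM in nuclear libraries. The 5 pollen genes and 42 of 46 endosperm storage genes were at 0. The endosperm list summed to 34.0 to 40.3 CPM in EU nascent and 32.5 to 40.2 CPM in nuclear libraries. Of 17 leaf photosynthesis genes 7 were at 0. That list summed to 653 to 706 CPM in EU nascent and 456 to 509 CPM in nuclear libraries, with 93.7% of its level coming from ppdk1. The 4 root development genes summed to 60.4 to 82.4 CPM in EU nascent and 58.7 to 62.2 CPM in nuclear libraries, and 1 of them, rtcs, was at 0. EU nascent replicate 1 stood apart in small RNA genes, and the values of single small RNA genes that rest on it are given with and without it. Counts and medians over sets of small RNA genes are given only with that library. Its part in the other results was not tested beyond leaving it out.

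The members took a small part of the reads. Their summed level was 10302, 11422, 11117, 11263 and 11403 CPM in EU nascent replicates 1 to 5. In nuclear replicates 1 to 5 it was 4483, 5236, 4618, 5067 and 4863 CPM. This is 1.11% ± 0.0463 of assigned counts in EU nascent and 0.485% ± 0.0310 in nuclear libraries (SD, n = 5). The median member had 48.8 CPM in EU nascent and 21.2 CPM in nuclear libraries, and the group means of single members ran from 27.6 to 508 CPM and from 7.92 to 252 CPM. Group means of at least 100 CPM in EU nascent were found for 28 members, and 83 had less than 50 CPM. The counts behind these levels were lowest in nuclear replicate 1, where the median member had 27 counts and the lowest had 5. In nuclear replicate 4 the median member had 465 counts. Gene lengths of the annotation used for counting are not given in the sources used here, so the order of levels between genes is an order of read shares and not of RNA amounts.

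**Figure D1:**
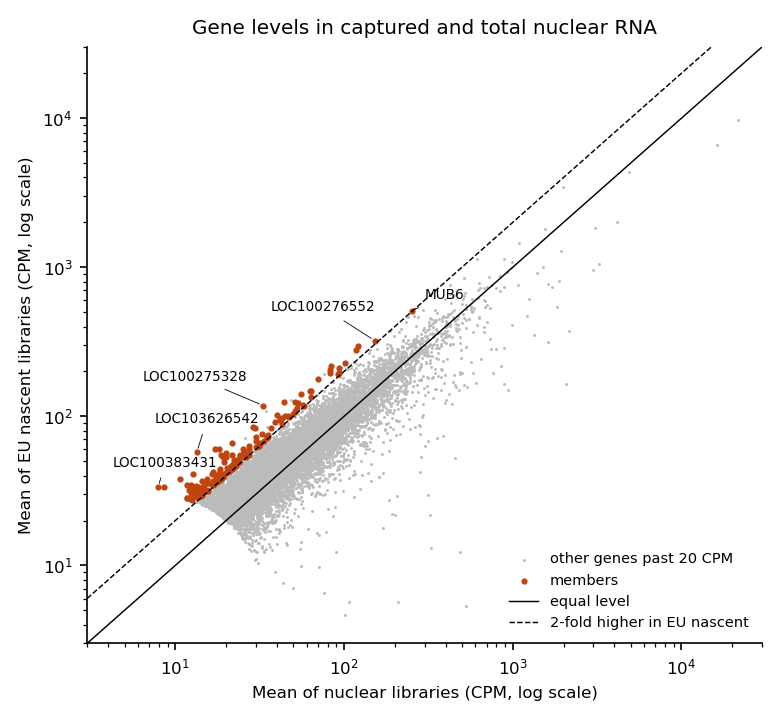
Mean level of each gene in the 5 EU nascent libraries (vertical, CPM, log scale) against the 5 nuclear libraries (horizontal, CPM, log scale) for the 11920 genes with a mean of at least 20 CPM, with the 157 members in orange. The members lie along and above the dashed line of a 2-fold difference, most of them close to it, and they thin out above 200 CPM in EU nascent.

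Most members sat close to the limit that chose them. The median R was 1.15, with quartiles of 1.05 and 1.25 and a highest value of 2.06, and 102 members (65.0%) were under 1.2. A further 43 had an R from 1.2 to 1.5, and 12 reached 1.5 or more. Among the 11920 genes past the abundance limit the median R was 0.15, and 166 of them (1.39%) had an R of at least 1. All EU nascent libraries were above all nuclear ones for 2916 of the 11920 (24.5%), and for every member by the rule itself. The gap between the lowest EU nascent and the highest nuclear library ran from 0.393 to 140 CPM, with a median of 14.1 CPM.

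R was computed on library totals, and another scaling gave smaller differences. In the fit over all genes with edgeR, which scales by the trimmed mean of M values (TMM), the members' log2 fold changes had a median of 0.97 and ran from 0.75 to 2.10, with standard errors of 0.07 to 0.24. On that scale 67 members had a log2 fold change of at least 1 and 90 had less. Library totals alone move the median log2 fold change over all 21048 tested genes from 0.02 to 0.19, a shift of 0.17, and each change here is relative to that bulk. In the edgeR test at an adjusted p under 0.05, 19.8% of tested genes were higher in EU nascent and 21.1% were lower, which is 4166 and 4436 genes. With library totals alone the same test gave 7386 higher and 2765 lower of the 21048 tested genes. The counts in each gene list are therefore given below with library totals too, and are to be read beside these. Calls below are from fits without a block for the replicate number, unless a block is named. With that block 5099 genes were higher and 5347 lower, so counts of genes that did not pass move with it. All 157 members were among the higher ones, which follows from how they were chosen.

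The ubiquitin gene LOC100282068, listed as MUB6, had the highest level of all members. Ubiquitin is a small protein that is joined to other proteins and marks many of them for breakdown. Its level was 560, 515, 410, 517 and 540 CPM in EU nascent replicates 1 to 5, and 268, 274, 189, 266 and 264 CPM in the nuclear ones. Replicate 3 was the lowest library of both groups. The means were 508 ± 58.0 and 252 ± 35.3 CPM (SD, n = 5), which is 2.02-fold, and the edgeR log2 fold change was 0.84 ± 0.11 (SE). MUB6 had fractional counts in 4 libraries, which may mark reads divided between genes, since the unit was inferred from the values. The other tested genes of the ubiquitin list were MUB3 (LOC103626648, 0.77 ± 0.09, adjusted p = 2.30e-06 in edgeR) and MUB14 (LOC542322, 0.62 ± 0.08, adjusted p = 6.25e-06 in edgeR). Both of these were higher in EU nascent, also with library totals, and had a median log2 fold change of 0.69, where 19.8% of all tested genes were higher and the median was 0.02. Ubiquitin genes are near copies of each other, so the split of reads among them is uncertain.

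The other 7 members with at least 200 CPM in EU nascent carry no name in the gene table beyond their locus symbol, which is LOC followed by the NCBI GeneID. LOC100276552 had 309, 341, 310, 301 and 349 CPM in EU nascent replicates 1 to 5 and 144, 160, 154, 161 and 142 CPM in nuclear ones. Its libraries lay close together within each group, at 322 ± 21.5 and 152 ± 9.003 CPM (SD, n = 5, 2.12-fold). LOC100283989 was tight as well, with 225, 222, 235, 211 and 241 CPM against 96.0, 102, 106, 91.7 and 110 CPM. LOC100192762 was spread more widely, with 245, 346, 207, 402 and 285 CPM against 102, 138, 76.9, 173 and 118 CPM. Its libraries came in the same order in both groups, with replicate 4 highest and replicate 3 lowest. The remaining 4, LOC100193614, LOC100192501, LOC100273249 and LOC100281616, had means of 278, 218, 210 and 203 CPM in EU nascent and between 83.1 and 118 CPM in nuclear libraries.

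**Figure D2:**
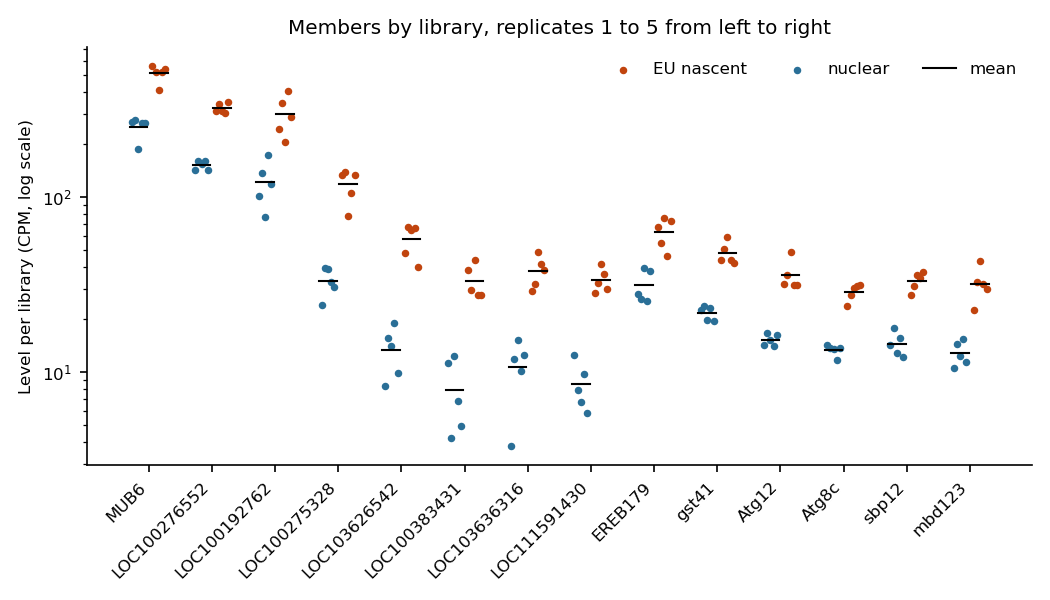
Level of 14 members in each library (CPM, log scale), with nuclear replicates in blue, EU nascent replicates in orange, replicates 1 to 5 from left to right within each group, and a black line at the group mean. The groups do not overlap for any of them by the rule, and the distance between them is largest for LOC103626542, LOC100383431 and LOC111591430.

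Only 2 members had an R of at least 2. LOC103626542 had 47.7, 67.8, 64.9, 66.9 and 39.8 CPM in EU nascent replicates 1 to 5 and 8.31, 15.7, 14.1, 19.0 and 9.83 CPM in nuclear ones. Replicates 1 and 5 were the lowest libraries of both groups. The means were 57.4 ± 12.8 and 13.4 ± 4.36 CPM (SD, n = 5), or 4.29-fold, and R was 2.06. LOC100383431 had 38.5, 29.3, 43.8, 27.6 and 27.5 CPM against 11.3, 4.21, 12.3, 6.81 and 4.92 CPM. Here replicates 1 and 3 were high in both groups. Its means were 33.3 ± 7.41 and 7.92 ± 3.71 CPM (4.21-fold, R of 2.01), the lowest nuclear mean of any member. LOC100383431 overlaps the protein-coding gene LOC100272543, which differed in the opposite direction (log2 fold change -1.39 ± 0.31, edgeR adjusted p = 0.00164), with 2.87 ± 1.40 CPM in EU nascent and 8.27 ± 4.31 CPM in nuclear libraries.

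Of the other members with the highest R, LOC100275328 stood out in level, with 134, 138, 77.8, 106 and 134 CPM in EU nascent and 24.2, 39.6, 38.8, 32.6 and 30.7 CPM in nuclear replicates 1 to 5. EU nascent replicate 3 was its lowest labelled library, while nuclear replicate 3 was near the top of its group. Its R was 1.82, and those of LOC103652794, LOC103653588 and LOC100284739 were 1.77, 1.69 and 1.65. LOC103652794 had 60.03 ± 8.68 CPM in EU nascent and 17.3 ± 2.56 CPM in nuclear libraries (SD, n = 5), a 3.47-fold difference. LOC103653588 ran from 32.4 to 84.2 CPM in EU nascent and from 10.9 to 27.9 CPM in nuclear libraries, and replicate 4 was highest and replicate 5 lowest in both. LOC100272600 and LOC100285127 had 1.58 and 1.55. The 10 highest also hold a snoRNA gene and a protein-coding gene that overlaps snoRNA genes, described with the small RNAs.

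The 14 members with a listed name include regulators of transcription. Of the 24 gene lists with tested genes, which group genes by name into transcription factor families, hormone pathways and cell functions, 6 held a member and 18 held none. EREB179 (LOC100216626) and EREB92 (LOC100280582) belong to the AP2/ERF family of DNA-binding transcription factors. EREB179 had 67.3, 54.9, 75.7, 46.1 and 72.9 CPM in EU nascent and 28.0, 26.2, 39.3, 25.3 and 37.9 CPM in nuclear replicates 1 to 5, and replicates 3 and 5 were high in both groups. Its R of 1.00 was the lowest of all members. EREB92 had 43.1, 33.6, 34.7, 34.5 and 38.3 CPM against 12.1, 21.8, 16.4, 18.04 and 20.8 CPM, so that replicate 1 was highest in EU nascent and lowest in nuclear RNA. In the whole AP2/ERF list 9 of 25 tested genes were higher and 5 lower by edgeR, 11 did not pass, and the median log2 fold change was 0.21. Without the 2 members and 1 gene that met the rule but is left out by its identifier, 6 of 22 were higher and 5 lower, and library totals alone gave 11 higher and 4 lower in the list. EREB94 (0.77 ± 0.20, edgeR adjusted p = 0.00407) was among the higher ones and EREB27 (-0.94 ± 0.20, edgeR adjusted p = 0.000981) among the lower ones.

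OBF3.1 (LOC542756) codes for a basic leucine zipper (bZIP) protein named for binding the ocs element, a promoter sequence first known from a bacterial gene. It had 33.9, 40.4, 36.4, 42.4 and 26.5 CPM in EU nascent and 18.9, 17.98, 16.4, 19.9 and 12.2 CPM in nuclear replicates 1 to 5. Replicate 4 was highest and replicate 5 lowest in both groups. Of its named relatives, obf3.2 (LOC542407) had a log2 fold change of 0.29 ± 0.15 (edgeR adjusted p = 0.143, or 0.00203 with the replicate number as a block and 0.0164 with library totals alone) and OBF1 fell by 0.58 on the log2 scale (edgeR adjusted p = 0.000146). Of 29 tested bZIP genes 9 were higher, 6 were lower and 14 did not pass, with a median of 0.27. Library totals alone gave 17 higher and 5 lower. Without OBF3.1 and 1 gene left out by its identifier, 7 of 27 were higher and 6 lower. OBF3.1 overlaps the long noncoding RNA gene LOC118476733, whose log2 fold change of -0.27 did not pass (edgeR adjusted p = 0.382).

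The methyl-CpG-binding domain gene mbd123 (GeneID 100383923), of a family of proteins that bind methylated DNA, had 22.6, 32.9, 43.0, 32.0 and 29.8 CPM in EU nascent and 10.6, 14.5, 12.3, 15.5 and 11.5 CPM in nuclear replicates 1 to 5. Replicate 1 was lowest in both groups. Of 45 tested genes of the chromatin list 10 were higher, 13 were lower and 22 did not pass, with a median of 0.00, while library totals alone gave 20 higher and 10 lower. Without mbd123 and 1 gene left out by its identifier, 8 of 43 were higher and 13 lower. Outside the members, the SET domain gene SDG123 (LOC542096) was higher by 0.84 ± 0.14 (edgeR adjusted p = 0.000119) and nfa102 (LOC542588) fell by 0.99 (edgeR adjusted p = 1.32e-07). The SBP-box transcription factor gene sbp12 (GeneID 100191346) had 27.6, 31.0, 36.0, 34.6 and 37.5 CPM against 14.4, 17.8, 12.9, 15.6 and 12.2 CPM. Its replicate 5 was highest in EU nascent and lowest in nuclear RNA. The SBP-box list was added after values were seen, and of its 16 tested genes 2 were higher, 1 was lower and 13 did not pass, with 8 higher under library totals alone. Besides sbp12, sbp3 was higher (0.49 ± 0.17, edgeR adjusted p = 0.0272) and sbp17 lower (-0.22, edgeR adjusted p = 0.0210). The call of sbp3 was lost without EU nascent replicate 2 or nuclear replicate 3, 4 or 5, and that of sbp17 without EU nascent replicate 2 or 5 or nuclear replicate 4 or 5. With library totals sbp17 had -0.05 (edgeR adjusted p = 0.627).

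Autophagy delivers cell contents to the vacuole in double-membraned vesicles. Atg8 proteins are joined to the lipid of that membrane, and Atg12 is joined to Atg5 in the step that helps to attach Atg8. Atg12 (LOC100240693) had 31.8, 35.9, 48.4, 31.5 and 31.3 CPM in EU nascent and 14.4, 16.6, 15.3, 14.1 and 16.4 CPM in nuclear replicates 1 to 5, and EU nascent replicate 3 stood above the rest. Atg8c (LOC100240696) had 23.8, 27.7, 30.2, 31.1 and 31.3 CPM against 14.4, 13.8, 13.5, 11.8 and 13.8 CPM. Within each group its libraries lay close together, apart from a lower EU nascent replicate 1.

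The autophagy list was also added after values were seen, so its counts describe and do not support. Of its 14 tested genes 9 were higher in EU nascent by edgeR and the other 5 did not pass, and 12 were higher under library totals. Without the 2 members, 7 of 12 were higher. The 12 that are not members had a median log2 fold change of 0.39 and ran from -0.17 to 0.75. Higher among them were Atg8e (0.75 ± 0.12, edgeR adjusted p = 7.48e-05), Atg8a (0.68 ± 0.17, 0.00315) and Atg8d (0.59 ± 0.13, 0.00118). Atg8b, at -0.17 ± 0.15, did not pass (edgeR adjusted p = 0.388). Atg12 overlaps LOC100383302, listed as MYBR67, which was higher by 0.37 ± 0.09 (edgeR adjusted p = 0.00257), so part of its reads may be assigned to either gene.

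Redox genes gave 2 members. The glutathione transferase gene gst41 (LOC541849), of a family of enzymes that join glutathione to reactive compounds, had 43.5, 50.3, 59.2, 43.4 and 41.8 CPM in EU nascent and 22.7, 23.7, 20.0, 23.3 and 19.7 CPM in nuclear replicates 1 to 5. Its nuclear libraries lay close together. The h-type thioredoxin gene listed as trxh2 (LOC606487), whose product reduces disulfide bonds of other proteins, had 68.6, 53.2, 29.4, 52.6 and 50.03 CPM against 21.2, 28.1, 17.0, 26.96 and 23.2 CPM. Replicate 3 was lowest in both groups. Across the 31 tested genes of the peroxidase and redox list 7 were higher, 10 were lower and 14 did not pass, with a median of -0.08. Under library totals 8 were higher and 8 lower, and the median was 0.09. Without the 2 members, 5 of 29 were higher and 10 lower. The glutathione transferase genes went both ways, with gst10 higher by 0.80 ± 0.16 (edgeR adjusted p = 0.000688) and GST26 lower at -2.08 ± 0.32 (edgeR adjusted p = 6.0e-05).

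The transporter list held 1 member. The phosphate transporter gene pht2 (GeneID 732716), whose family brings phosphate across membranes, had 36.8, 48.7, 52.9, 47.7 and 47.0 CPM in EU nascent and 16.6, 33.9, 22.3, 24.2 and 15.5 CPM in nuclear replicates 1 to 5. Nuclear replicate 2 came close to EU nascent replicate 1. Of 40 tested transporter genes 11 were higher, 10 were lower and 19 did not pass, with a median of 0.05, and library totals alone gave 15 higher and 5 lower. Without pht2 and 1 gene left out by its identifier, 9 of 38 were higher and 10 lower. The potassium transporter gene HAK23 (LOC100383367) was among the higher ones (0.72 ± 0.10, edgeR adjusted p = 2.52e-05). The remaining members with a listed name were CYP727A4 (LOC100286850), a cytochrome P450 gene, with 49.6 ± 7.48 and 23.7 ± 5.32 CPM (SD, n = 5), SAG (LOC542202) with 28.2 ± 5.92 and 12.2 ± 2.69 CPM, and NRH2 (LOC100274097) with 39.3 ± 5.04 and 19.2 ± 5.12 CPM. In all, 14 members have a listed name, and the other 143 are known here by their locus symbols alone.

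In their share of protein-coding genes the members were close to the abundant genes as a whole. Protein-coding genes were 147 of the 157 (93.6%), against 93.2% of the 11920 genes past 20 CPM. Long noncoding RNA genes were 5 (3.18% against 2.27%) and snoRNA genes 3 (1.91% against 0.965%). There was 1 transcribed pseudogene (0.637% against 2.37%) and 1 other pseudogene (0.637% against 0.529%). No small nuclear RNA (snRNA) gene was a member, where 48 of the 11920 genes (0.403%) were snRNA genes. Of these, 2, LOC111590328 and LOC111591490, met the limits of level and R and failed on the overlap of the groups. LOC111590328 had 279.8, 48.5, 46.3, 23.9 and 26.3 CPM in EU nascent and 67.6, 19.4, 47.0, 22.6 and 18.03 CPM in nuclear replicates 1 to 5. Its R of 1.27 rests on EU nascent replicate 1, and without that library R was 0.05. For LOC111591490, R went from 1.13 to 0.79 without it.

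The long noncoding RNA member LOC100278068, which had the highest level of the 5, gave 85.5, 113, 109, 98.9 and 101 CPM in EU nascent and 35.5, 44.9, 37.9, 43.7 and 37.7 CPM in nuclear replicates 1 to 5. The other 4 were LOC103626775, LOC111591143, LOC103653124 and LOC103635047, with EU nascent means between 34.7 and 39.6 CPM and R of 1.27, 1.16, 1.06 and 1.02. The transcribed pseudogene LOC100382199 had 113 ± 8.28 and 52.6 ± 3.66 CPM (SD, n = 5). The pseudogene LOC111591454 had 31.7 ± 2.13 and 14.2 ± 2.68 CPM and overlaps the long noncoding RNA gene LOC103654564, whose log2 fold change of -0.15 did not pass (edgeR adjusted p = 0.110, or 0.0243 with the replicate number as a block).

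Small nucleolar RNAs (snoRNAs) guide the chemical modification of ribosomal RNA, and many are cut from the introns or precursors of longer transcripts. In the gene table, which belongs to assembly Zm-B73-REFERENCE-NAM-5.0 and was used for names and overlaps only, 4 protein-coding members overlap snoRNA genes (2.55%, against 0.772% of genes past 20 CPM), and each of the 3 snoRNA members overlaps a protein-coding gene. Overlap was judged by position alone, and neither strand nor nesting was checked. A protein-coding gene that overlaps a snoRNA gene is called a host below. Reads from a host and from its snoRNA can be counted for either. The strand setting of the counting is not given in the sources used here, so every value of these pairs is uncertain in that respect.

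LOC103636316 was the host with the highest R, at 1.78. It had 29.1, 32.1, 48.4, 41.6 and 38.4 CPM in EU nascent and 3.78, 11.9, 15.3, 10.1 and 12.5 CPM in nuclear replicates 1 to 5, and replicate 1 was lowest and replicate 3 highest in both groups. Its 5 counts in nuclear replicate 1 were the fewest of any member in any library. Of the 4 snoRNA genes that overlap it, 3 were lower in EU nascent. LOC111590048 had 14.2 ± 2.95 CPM in EU nascent and 45.02 ± 6.57 CPM in nuclear libraries (log2 fold change -1.84 ± 0.14, edgeR adjusted p = 2.35e-08). LOC111590051 had -1.72 ± 0.16 (edgeR adjusted p = 1.62e-07) and LOC111590027 had -0.88 ± 0.13 (edgeR adjusted p = 5.24e-05). The fourth, LOC111589997, had 0.29 ± 0.15 and did not pass (edgeR adjusted p = 0.126), but was higher without EU nascent replicate 1 (0.39, edgeR adjusted p = 0.0211) and with library totals alone (0.46, 0.0160).

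LOC100282010, with 60.5 ± 7.69 CPM in EU nascent and 27.4 ± 2.84 CPM in nuclear libraries (SD, n = 5), overlaps 3 snoRNA genes that did not move together. LOC111590220 was 22.5 ± 1.57 against 5.43 ± 1.43 CPM (1.86 ± 0.16, edgeR adjusted p = 1.25e-07), which is more than its host. LOC111590219 was also higher (0.85 ± 0.22, edgeR adjusted p = 0.00399). LOC111590218 was lower, at 6.66 ± 1.90 against 26.7 ± 3.805 CPM (-2.10 ± 0.17, edgeR adjusted p = 6.57e-08).

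LOC100282895 (R of 1.08) overlaps LOC111589476, which was lower (-0.56 ± 0.12, edgeR adjusted p = 0.000942), and LOC111589460, which had -0.47 ± 0.20 and did not pass (edgeR adjusted p = 0.0691). It was lower without EU nascent replicate 1 (-0.68, edgeR adjusted p = 0.000975) and in the blocked fit by replicate number (-0.56, edgeR adjusted p = 0.000319). LOC100194015 (R of 1.21) overlaps LOC111590055, whose 0.49 ± 0.29 did not pass (edgeR adjusted p = 0.194), though it was higher without nuclear replicate 4 (1.00). Of the 10 snoRNA genes that overlap these 4 members, 2 were higher, 5 were lower and 3 did not pass. Their median log2 fold change was -0.51. Over the 141 tested snoRNA genes that overlap any tested protein-coding gene, 35 were higher and 41 lower, with a median of 0.00. Library totals gave 51 and 32. Of the 98 other tested protein-coding genes that overlap a snoRNA gene, 14 were higher and 31 lower, with a median of -0.12. Library totals alone turned that median to 0.05, with 30 higher and 21 lower.

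The 3 snoRNA members were higher in EU nascent while 2 of their 3 overlapping genes were lower. LOC111591430 had 28.4, 32.3, 41.4, 36.6 and 29.8 CPM in EU nascent and 12.5, 7.94, 6.75, 9.76 and 5.85 CPM in nuclear replicates 1 to 5, which is 3.94-fold. The protein-coding gene that overlaps it, LOC100282167, had 304 ± 21.2 and 444 ± 73.3 CPM (SD, n = 5, -0.72 ± 0.10, edgeR adjusted p = 1.90e-05). LOC111590740 had 35.3, 55.8, 66.0, 48.4 and 59.3 CPM against 21.5, 20.0, 24.4, 18.8 and 15.1 CPM, with EU nascent replicate 1 the lowest of its group. Its overlapping gene LOC100283317 was lower by more than any other tested gene that overlaps a snoRNA member, with 196 ± 11.7 and 497 ± 42.7 CPM (-1.51 ± 0.08, edgeR adjusted p = 2.26e-10). LOC111590093 had 38.6 ± 2.57 and 17.5 ± 3.47 CPM, and its overlapping gene LOC100281129 was higher as well (0.61 ± 0.08, edgeR adjusted p = 8.73e-06). All 3 snoRNA members had fractional counts in 4 to 7 libraries. Among all 247 tested snoRNA genes 42 were higher and 106 lower, with a median of -0.32. Library totals gave 62 higher, 93 lower and -0.15.

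**Figure D3:**
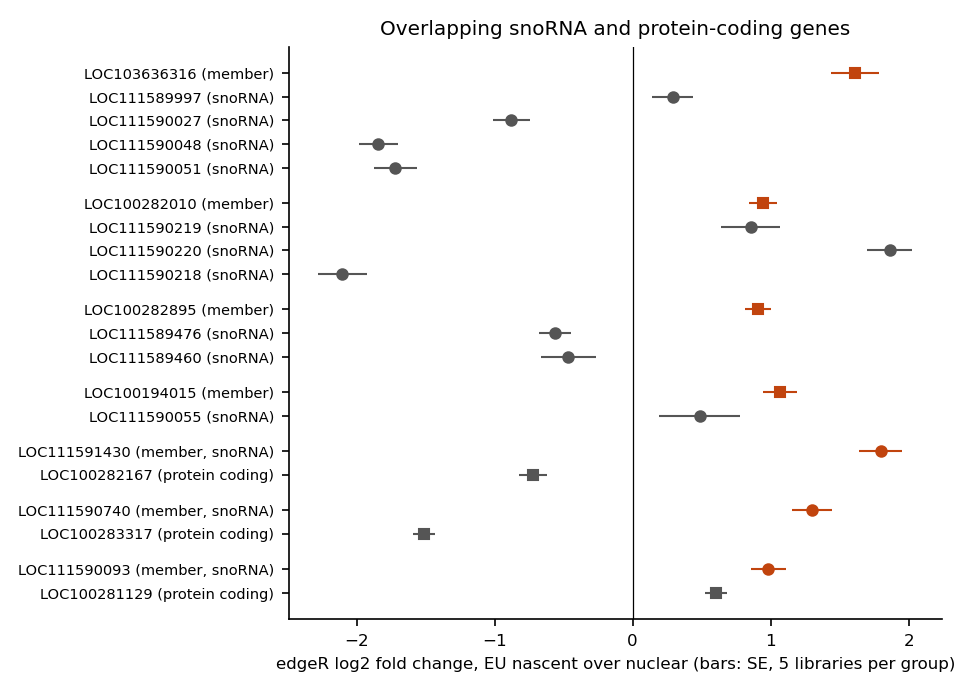
The edgeR log2 fold change of EU nascent over nuclear for members (orange) and the genes that overlap them (grey), grouped by pair, with circles for snoRNA genes, squares for protein-coding genes and bars of 1 SE (5 libraries per group). Members lie right of 0 by the rule, and their partners lie on both sides, from -2.10 for LOC111590218 to 1.86 for LOC111590220.

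Overlap with other genes was not more common among members than among abundant genes, at 19 of 157 (12.1%) against 11.8%. Outside the snoRNA pairs, LOC103630544 (29.4 ± 3.93 and 12.5 ± 1.94 CPM) overlaps LOC103630545, which was lower (176 ± 6.48 and 277 ± 19.7 CPM, -0.82 ± 0.07, edgeR adjusted p = 1.19e-07). LOC100281910 overlaps LOC103633383, also lower (-0.78 ± 0.18, edgeR adjusted p = 0.00205). LOC100384791 overlaps the pseudogene LOC103645116, which was higher (0.66 ± 0.21, edgeR adjusted p = 0.0172, lost without replicate 4 of either group), and the partner of LOC103635138, LOC100502168, had -0.07 and did not pass (edgeR adjusted p = 0.516). Fractional counts occurred for 44 members (28.0%) and for 31.6% of abundant genes.

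Members lay on each of chromosomes 1 to 10. No member was next to another in gene order. The same count was not made for other sets of genes, so nothing is read from it. Chromosome 4 held 24 members (15.3%, against 10.1% of abundant genes) and chromosome 1 held 20 (12.7% against 15.7%). The members' non-overlapping neighbours in gene order, 296 genes of which 161 were tested, had a median log2 fold change of 0.03. Of those tested, 33 were higher (20.5%) and 34 lower (21.1%), close to the 19.8% and 21.1% of all tested genes. With library totals alone 63 of the 161 were higher and 18 lower, with a median of 0.20. Over all 21048 tested genes library totals gave 7386 higher and 2765 lower, with a median of 0.19.

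The difference was also read in libraries set aside while genes were chosen. The limits of the rule were set with earlier results of these data known, so these values are description and support nothing. For each replicate number in turn, both libraries of that number were set aside, the same rule was applied to the other 8, and the log2 ratio of the 2 libraries set aside was read for the genes so chosen. The choice gave 177, 183, 154, 171 and 158 genes without numbers 1 to 5, of which 139, 146, 132, 148 and 134 were among the 157. In the libraries set aside, the median log2 ratio of the chosen genes was 1.05, 1.02, 1.17, 1.05 and 1.10, against 0.12, 0.15, 0.14, 0.15 and 0.15 for all genes past 20 CPM. Their median R over the 8 libraries of the choice, a ratio of group means and not of 1 pair, was between 1.12 and 1.13. The ratio in the pair set aside was at least 1 for 52.0%, 53.6%, 64.9%, 56.1% and 63.3% of the chosen genes. For all genes past 20 CPM that share was between 1.55% and 4.22%. The ratio was above 0 for every chosen gene except 1, with number 1 set aside. Among all genes past 20 CPM it was above 0 for between 60.7% and 64.5%. Of the 157 members, 106 (67.5%) were chosen again whichever number was set aside.

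**Figure D4:**
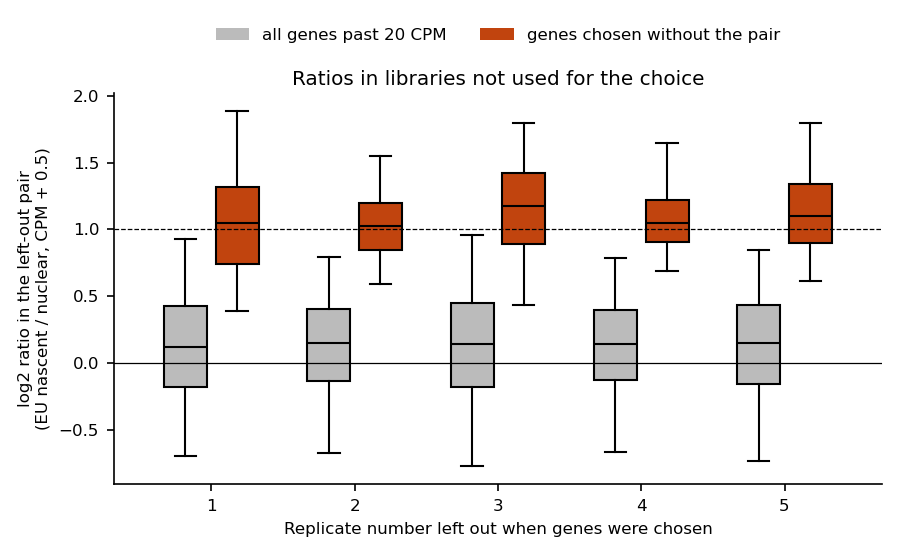
Log2 ratio of EU nascent over nuclear (CPM with 0.5 added) in the pair of libraries left out, for genes chosen on the other 8 libraries (orange) and for all genes past 20 CPM (grey), by the replicate number left out. Boxes show the quartiles and median and whiskers the 5th and 95th percentiles; the orange medians lie between 1.02 and 1.17, near the dashed line at 1, and the grey ones between 0.12 and 0.15.

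Within groups, the members' median spread was above that of other genes of like level, except at the lowest levels of EU nascent. Among genes with 40 to 80 CPM in EU nascent, the median coefficient of variation over the 5 libraries was 15.2% for 63 members and 10.6% for other genes. At 80 to 160 CPM it was 12.99% for 25 members and 8.93% for others, and at 20 to 40 CPM it was 13.4% for 57 members and 13.6% for others. In nuclear libraries it was 21.4% for 70 members and 17.2% for others at 10 to 20 CPM, and 14.8% for 54 members and 13.3% for others at 20 to 40 CPM. These are descriptions without a test. The steadiest member in EU nascent was LOC100276725, with 32.6, 30.2, 32.3, 32.0 and 32.3 CPM, a coefficient of variation of 3.08%. The least steady was LOC103652891, with 19.7, 27.6, 48.0, 22.7 and 23.8 CPM (40.05%), where replicate 3 alone was high. LOC100193182 gave 93.9, 98.8, 140, 95.8 and 197 CPM against 40.05, 39.2, 55.2, 30.2 and 56.2 CPM, with replicates 3 and 5 high in both groups.

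Libraries of the same replicate number deviated from their group means together. Across the 157 members, the correlation of these deviations between EU nascent and nuclear libraries of the same number was 0.29, 0.47, 0.27, 0.57 and 0.46 for numbers 1 to 5. The highest between different numbers was 0.40, for EU nascent replicate 2 and nuclear replicate 4. For the other 11763 genes past 20 CPM the same-number values were 0.39, 0.39, 0.32, 0.38 and 0.27, and the highest other was 0.20. These are correlations across genes that share libraries and depth, and genes are not independent replicates. The same number was highest in both groups for 48 members (30.6%, against 30.7% of the others) and lowest in both for 66 (42.0% against 33.6%). EU nascent replicate 1 was the lowest labelled library for 69 members (43.9%) and nuclear replicate 1 the lowest nuclear library for 59 (37.6%). Number 1 had the fewest assigned counts in both groups, and the part of depth in this was not tested.

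**Figure D5:**
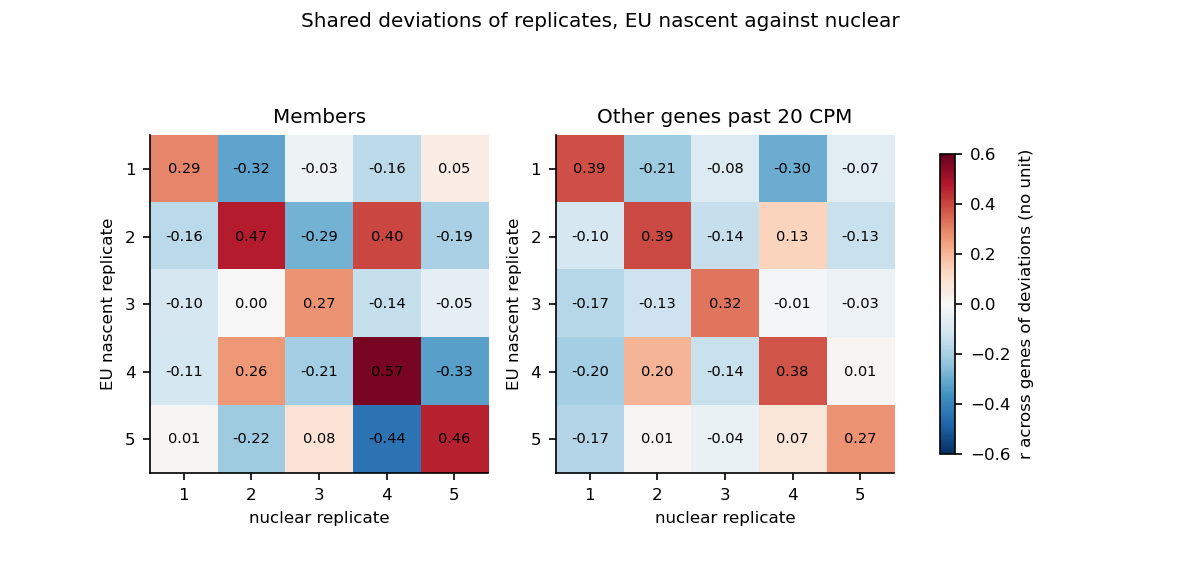
Correlation across genes of the log2 deviations from the group mean between each EU nascent replicate (rows) and each nuclear replicate (columns), for the 157 members (left) and the 11763 other genes past 20 CPM (right), with color from -0.6 (blue) to 0.6 (red). The diagonal, where the numbers match, holds the highest value of every row and column in both panels.

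The genes whose within-group deviations over the 10 libraries were most like those of the members' summed level were LOC103646009, LOC100283386 and LOC100285684, with a correlation of 0.98, 0.97 and 0.97. None of them is a member, and their log2 fold changes were -0.38, 1.18 and 0.23. The nearest genes around the limits differed little in value. Just inside, LOC100216626 and LOC100279727 had an R of 1.00, with the second at 43.0 ± 3.31 and 21.2 ± 4.62 CPM (SD, n = 5). Just outside, LOC100193596 had 0.999, with 39.0 ± 6.15 and 19.2 ± 2.30 CPM, and LOC103654185 also missed the limit with 207 ± 22 and 103 ± 12.6 CPM. At the abundance limit LOC100276624, LOC103652891, LOC100383556, LOC118471891 and LOC542202 lay at 20.0 to 20.2 CPM, and LOC100281884, LOC103627823, LOC103633744, LOC100278059 and LOC100285762 lay just below at 19.4 to 19.7 CPM.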

How the data were processed

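Nuclear RNA was made into directional libraries with molecular identifiers after ribosomal RNA depletion, per the labels' protocols. Tools listed in the submitters' processing notes, whose roles are not stated, are HTSeq, deepTools, UMI-tools, SAMtools, STAR 2.7.10b and Trimmomatic 0.36 and 0.39. Genome build, annotation and strand setting of the counting are not given in the sources used here, so no coordinates are printed. The values deposited by the authors were read to be expected counts per gene, not normalized, because some are fractions (whole was taken within 1e-06). They were rounded before testing.

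CPM is a count over the library total of assigned counts. The test was edgeR 4.0.16 (R 4.3.3, quasi-likelihood, filterByExpr, TMM, Benjamini-Hochberg at 0.05), with limma 3.58.1 and DESeq2 1.42.0 in alternatives. Python 3.11.15 with numpy 2.4.6, pandas 2.3.3 and matplotlib 3.10.9 did the rest. The edgeR comparison of EU nascent with nuclear was tested on simulated counts of 20889 genes. At a 2-fold change it called 87% of 100 altered genes, and at 1.5-fold 63% of 100, with 6 false calls. Only these genes were altered, all upward, and the simulated libraries shared nothing by replicate number. In the data far more genes were called, in both directions, so these rates may not hold there.

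Of 48174 identifiers, 48127 (99.9%) matched the RefSeq gene table (assembly Zm-B73-REFERENCE-NAM-5.0). Named are members with a listed name, without protein-coding biotype, or overlapping another gene, those highest in R or level, those with the smallest or largest spread, and genes beside each limit. Genes given from the lists outside the members were chosen after their values were seen. The members, the lists and these rules were chosen with earlier results of these data known. Promoter and protein sequences were not analysed here.

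The replicate numbers pair the libraries by the data: over all tested genes every same-number correlation of deviations was between 0.16 and 0.22, and the highest between different numbers was 0.12. The labels do not say what a number shares. The planned fit has no block.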

Additional observations from a re-analysis of the deposited data

Results flagged for a closer look

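Among 134 groups of 5 values examined (66 named members and the summed level, in each condition), 9 (6.72%) held a library whose distance to its nearest neighbour took up more than 0.71 of the range of the group. Chance gives about 1 in 20. The ubiquitin gene LOC100282068 (MUB6) had 189 CPM in nuclear replicate 3, against 264 to 274 CPM in the other nuclear libraries. LOC100284625 was also low in nuclear replicate 3, with 8.81 CPM against 17.8 to 18.7 CPM. LOC100281616 was low in nuclear replicate 1, with 59.7 CPM against 86.0 to 91.1 CPM. In EU nascent replicate 3, LOC100240693 (Atg12) was high with 48.4 CPM against 31.3 to 35.9 CPM. LOC103652891 was high in the same library, with 48.0 CPM against 19.7 to 27.6 CPM. LOC100383556 was low there, with 21.1 CPM against 28.8 to 30.2 CPM. The long noncoding RNA gene LOC111591143 was high in EU nascent replicate 5, with 48.5 CPM against 35.7 to 38.7 CPM. LOC100276725, the steadiest member, was low in EU nascent replicate 2 by a small amount, with 30.2 CPM against 32.0 to 32.6 CPM. The summed level of the members was lowest in EU nascent replicate 1, with 10302 CPM against 11117 to 11422 CPM.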

How the results depend on the processing

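The number of members, 157, moved most with the limits and the scaling. TMM-scaled library sizes left 65 and DESeq2 size factors 67. A mean CPM of at least 10 gave 301 and of at least 40 gave 59, and an R of at least 0.8 gave 488 and of at least 1.2 gave 55. Leaving out 1 library gave 147 to 188 members, and leaving out both libraries of a number, an alternative chosen after seeing the data, 154 to 183. Library totals alone in edgeR gave 7386 genes higher and 2765 lower in place of 4166 and 4436, a median log2 fold change of the members of 1.14 in place of 0.97, and 139 in place of 67 members with at least 1. With the replicate block 5099 genes were higher and 5347 lower, all 157 members were called higher, and their median was 0.99. Among single genes whose calls are given here, it changed those of LOC542407, LOC103654564 and LOC111589460. Counts of calls in the gene lists are from the fit without a block and move with it. In the SBP-box list, sbp5 and sbp18 became higher and sbp20 lower (edgeR adjusted p = 0.0309, 0.0248 and 0.00644 with the block). Leaving out 1 library gave 3406 to 4636 higher genes and a median of 0.95 to 1.00 for the members. No alternative run reversed the direction of a named member, and the lowest log2 fold change of these 66 was 0.68. The kept direction follows largely from how the members were chosen and supports nothing. Outside the members, library totals turned the sign of values that had not passed (LOC100502168 from -0.07 to 0.11, LOC103654564 from -0.15 to 0.02, Atg8b from -0.17 to 0.01) and of the medians of the redox list (-0.08 to 0.09) and of other snoRNA hosts (-0.12 to 0.05). Promoter motifs and their alternative window were not run. Depth limits the members most in nuclear replicate 1, where a few counts carry a value.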
